A study of Pimephales promelas with 16 samples.

Results

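Flutamide was compared with LIN in cultured ovary pieces (explants) from female fathead minnow (Pimephales promelas). The comparison holds every array with either agent in its title, the flutamide arrays numbered 2, 3, 5 and 6 and the LIN arrays numbered 3, 4, 5 and 6, which are 8 of the 16 one-colour arrays of the series. Both compounds were given at 1e-06 M for 12 h, the DHT group had the same concentration and time, and the control group is labelled only as control. LIN is read as linuron, which the series title names, and that title asks about gene networks that linuron and flutamide share in the ovary. DHT and control had 4 arrays each and entered the fit to estimate the spread. No genotype, strain or age is given. The labels do not say whether the arrays of a group came from separate fish or whether control explants received a carrier, so every p-value below reflects only how these samples varied, which may be partly technical.

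The androgen receptor is a steroid receptor that binds DNA once an androgen such as dihydrotestosterone, the usual meaning of DHT, has bound it. Flutamide is a non-steroidal drug that keeps androgens from the receptor, and linuron is a urea herbicide known to act as a weaker blocker of the same receptor in vertebrates. In the fish ovary the theca cells around the follicle make androgens, and granulosa cells turn part of them into oestrogen. Flutamide is an anilide and linuron a phenylurea, and both carry a substituted benzene ring. The probes are given by probe and sequence name, because 0 of the 14499 sequence names matched a gene in the table at hand, so no probe could be given a gene, and the ovary label could not be checked against marker genes.

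No difference between the compounds passed the test at any probe. Among 13146 probes limma called 0 at an adjusted p below 0.05 (0% of the probes tested), and the lowest adjusted p was 1.00. At an unadjusted p below 0.05 there were 130 probes (0.989%), 64 higher (0.487%) and 66 lower (0.502%) after flutamide. This fit left out the title numbers, and 996 or 817 probes lay there with the number as a fixed or random block. Levels here and below are log2 signals relative to the 75th percentile of the same array, and a difference is flutamide minus LIN on that scale. RNA came from whole explants, so fewer cells of a type and less RNA per cell cannot be told apart.

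A missed threshold does not show that the compounds acted alike, so the 95% intervals of the differences were counted. The interval lay wholly within a 2-fold difference in either direction for 8218 probes (62.5%) and within 1.5-fold for 3197 probes (24.3%). The median interval reached 0.66 to either side. The fitted differences themselves were smaller than that for most probes, with a median size of 0.16 and a 95th percentile of 0.69. A fitted difference over 2-fold was found for 95 higher and 160 lower probes, of which 37 lay at an unadjusted p below 0.05. Intervals were wider for dim probes. Split by mean level into 5 equal groups, the probes of the dimmest group had a median interval that reached 0.97 to either side and 28.5% of them had an interval within 2-fold. In the brightest group these values were 0.41 and 93.7%. All of these intervals come from the fit without the title numbers. With the number as a fixed or random block, 10193 or 10429 probes had an interval within 2-fold.

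The titles number the samples, and among the 8 flutamide and LIN arrays the pairs with the same number were closer than any other pairs. Arrays of the same number correlated over probes at r = 0.977 for number 3, 0.994 for number 5 and 0.977 for number 6. For the 13 flutamide and LIN pairs with different numbers r lay between 0.948 and 0.964. Within a compound it lay between 0.955 and 0.962 for flutamide and between 0.952 and 0.963 for LIN. A flutamide array was therefore nearer to the LIN array of its number than to any other flutamide array. Most other same-number pairs of the series were close too: the 13 had r from 0.953 to 0.991, with a median of 0.986. The 79 different-number pairs with a DHT or control array had r from 0.931 to 0.968, with a median of 0.954. Control 6 with LIN 6 (0.953) and control 6 with flutamide 6 (0.966) lay within that range. Flutamide 6 was nearer to DHT 6 (r = 0.988) than to LIN 6, and flutamide 3 was nearer to control 3 (r = 0.980) than to LIN 3. Over the 6 arrays with a partner, the number took 73.1% of the sum of squares over 13120 probes, the compound 11.8% and the remainder 15.2%. Per degree of freedom the mean squares were 0.808, 0.260 and 0.168. These shares describe 6 arrays and were not tested.

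**Figure D1:**
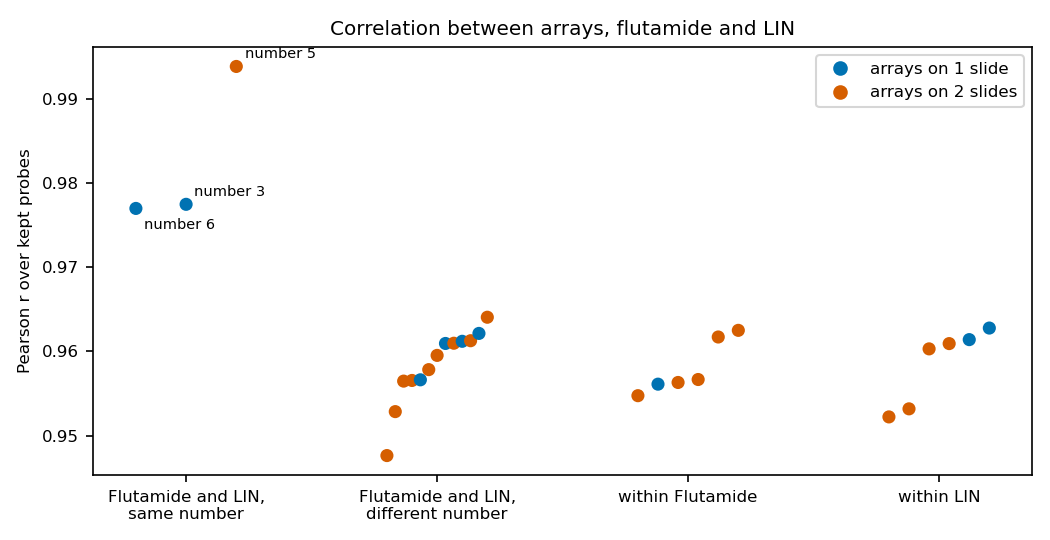
Each point is the Pearson correlation (vertical axis, no unit) of 1 pair of flutamide and LIN arrays over the kept probes, grouped by kind of pair and coloured by whether the arrays lay on 1 slide. The 3 pairs with the same number sit between 0.977 and 0.994, above all pairs with different numbers and all pairs within a compound.

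The order of the pairs did not follow the slides. The pair with number 5 was the closest of all 16 same-number pairs in the series, the other 15 reaching 0.991 at most, although flutamide 5 lay on slide 1 and LIN 5 on slide 3, scanned on the other day. Flutamide 3 and LIN 3 shared slide 1, and flutamide 6 and LIN 6 shared slide 3. All 4 flutamide arrays lay in slide column 3, while LIN arrays lay in columns 4 and 2, so compound and slide column cannot be told apart. On flutamide arrays the 75th percentile signal lay between 1024 and 2582, and on LIN arrays between 1513 and 3066. Between 80.9% and 85.8% of probes were well above background on flutamide arrays and between 82.9% and 87.8% on LIN arrays.

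Within the numbers 3, 5 and 6, limma again called 0 of 13146 probes (0%), with a lowest adjusted p of 0.634. At an unadjusted p below 0.05 there were 911 probes (6.93%), 776 higher (5.9%) and 135 lower (1.03%). The split between directions depended on the scaling: 14.8% of these probes were lower, against 48.65% with median scaling, 47.91% with quantile normalization and 51.23% in the authors' deposited table of log2 values. It was 99.01% with centring on spike-in spots, which moved the median difference from 0.09 to -0.72, and 2.941% with normexp background correction. In the comparison of 4 against 4 arrays the share lower was 50.77%, and 99.67% with spike-in centring and 0.942% with normexp. No direction of the whole set of probes is therefore given for either comparison. The intervals were narrower within numbers: 9998 probes (76.1%) had an interval within 2-fold and 5315 (40.4%) within 1.5-fold, with a median reach of 0.45.

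The 3 numbered pairs differed in how far flutamide and LIN lay apart. The SD of the difference over probes was 0.66 in pair 3, 0.37 in pair 5 and 0.74 in pair 6. Over 2-fold differences were found for 224 higher and 659 lower probes in pair 3, for 231 and 68 in pair 5, and for 1488 and 285 in pair 6. Among differences of that size lower probes outnumbered higher ones in pair 3, and higher ones outnumbered lower ones in pairs 5 and 6, while the median difference over all probes was 0.09, 0.07 and 0.12. The differences of the pairs, which share no array, correlated across 13120 probes at r = 0.08 for pairs 3 and 5, 0.26 for pairs 3 and 6, and 0.05 for pairs 5 and 6. Probes are not independent replicates, and all flutamide arrays share a slide column, so these values are descriptions.

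**Figure D2:**
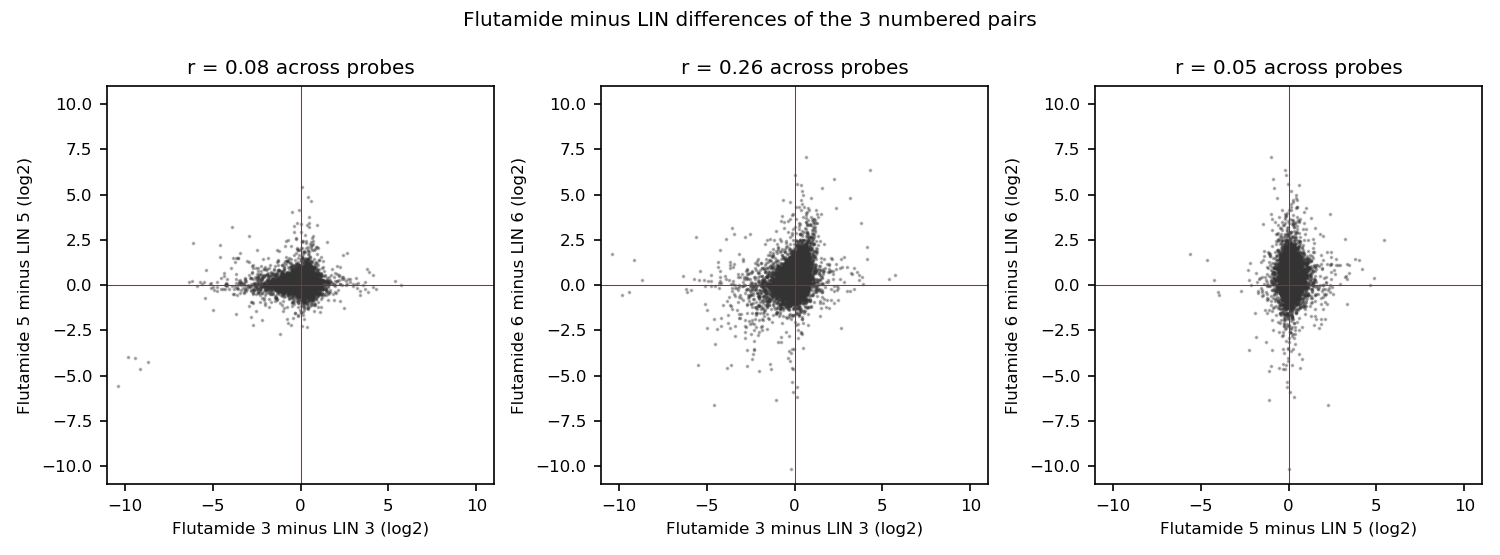
Each panel sets the flutamide minus LIN difference (log2) of 1 numbered pair against that of another, with 1 point per kept probe and red lines at 0. The clouds lie along the axes more than along a diagonal, with r = 0.08, 0.26 and 0.05 across probes.

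A difference of the same sign in 3 of 3 pairs was found for 3445 higher (26.3%) and 1057 lower (8.06%) probes. With median scaling these counts were 1671 and 2080, and 1904 and 2109 in the authors' deposited table. They were 50 and 10209 with spike-in centring, and 6011 and 684 with normexp. Differences over 2-fold the same way in 3 of 3 pairs were rare, at 5 higher and 7 lower of 13120 probes. Higher and lower counts of that size were 3 and 13 with quantile normalization, 1 and 39 with spike-in centring, and 0 and 0 with normexp. At the 12 probes first counted, the 2 arrays without a partner, flutamide 2 and LIN 4, often went otherwise. Flutamide 2 lay above LIN 4 at 1 of the 5 higher probes and below it at 5 of the 7 lower ones. Most of the 12 were dim, with mean levels over the 8 arrays from -7.69 to -4.01, the highest at UF_Ppr_AM_119600. UF_Ppr_AF_117777 (FJU.1895.C3) had the widest spread of the 12, at -1.07, -1.09 and -6.34 in pairs 3, 5 and 6.

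Among probes without overlap between the 4 flutamide and the 4 LIN arrays, UF_Ppr_AF_112809, for sequence gi_73719313, had the lowest p. Its level was -4.02, -4.17, -4.44 and -4.43 on flutamide arrays 2, 3, 5 and 6, against -4.93, -4.86, -4.99 and -5.26 on LIN arrays 3, 4, 5 and 6. The gap between the groups was wider than the spread within either of them. The difference was 0.74 ± 0.16 (SE), a 1.68-fold higher level after flutamide, which did not pass (limma adjusted p = 1.00). It was 0.21 with spike-in centring and 1.22 with normexp. With the title number as a fixed block it was 0.68 (limma adjusted p = 0.64), and as a random block 0.71 (limma adjusted p = 0.121). All 4 DHT arrays, between -4.85 and -4.57, lay in the gap between the compounds, and control arrays ran from -4.84 to -4.37.

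UF_Ppr_AM_119600, for contig FJU_SB_30.150.C2, was the other higher probe. It stood at -3.67, -3.14, -3.33 and -3.25 on the flutamide arrays, against -4.20, -3.99, -4.70 and -5.80 on the LIN arrays. The flutamide arrays lay close together and the LIN arrays were spread, with LIN 6 the lowest. The difference was 1.33 ± 0.32 (SE), 2.51-fold, without passing (limma adjusted p = 1.00), and it was 0.86 within slide 1 and 1.998 within slide 3. Its mean was -4.50 ± 0.19 with DHT and -3.19 ± 0.39 in control (SD, n = 4 each). The flutamide arrays lay within the range of the control arrays, from -3.68 to -2.74. The LIN mean, at -4.67, was near the DHT mean, but LIN 3 and 4 lay above all DHT arrays and LIN 5 and 6 below them. In the numbered pairs 3, 5 and 6 the differences of this probe were 1.06, 1.37 and 2.54.

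UF_Ppr_AF_104057, for contig FJU.4228.C1, had the lowest p among the lower probes. It stood at -5.43, -5.57, -4.04 and -5.44 on the flutamide arrays, against -2.43, -2.33, -3.77 and -3.83 on the LIN arrays. Flutamide 5 was the highest of its group and lay nearest to its partner, with a difference of -0.27 in pair 5. The difference was -2.03 ± 0.56 (SE), 4.08-fold lower after flutamide, without passing (limma adjusted p = 1.00), and it was -0.40 with normexp. DHT arrays ran from -4.87 to -3.11 and control arrays from -6.60 to -4.26.

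UF_Ppr_AF_113512, for contig FJU.5012.C1, was a brighter probe. Its level was -0.42, -0.36, 0.19 and -0.04 on the flutamide arrays, against 0.31, 0.51, 0.31 and 0.56 on the LIN arrays. The groups did not overlap, and flutamide 5 was again nearest to its partner LIN 5. The difference was -0.58 ± 0.17 (SE), 1.495-fold lower after flutamide, without passing (limma adjusted p = 1.00), and it was -1.11 with spike-in centring. LIN lay beside DHT at 0.39 ± 0.18 and control at 0.61 ± 0.21 (SD, n = 4 each), and the flutamide arrays lay below all of the DHT and control arrays.

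**Figure D3:**
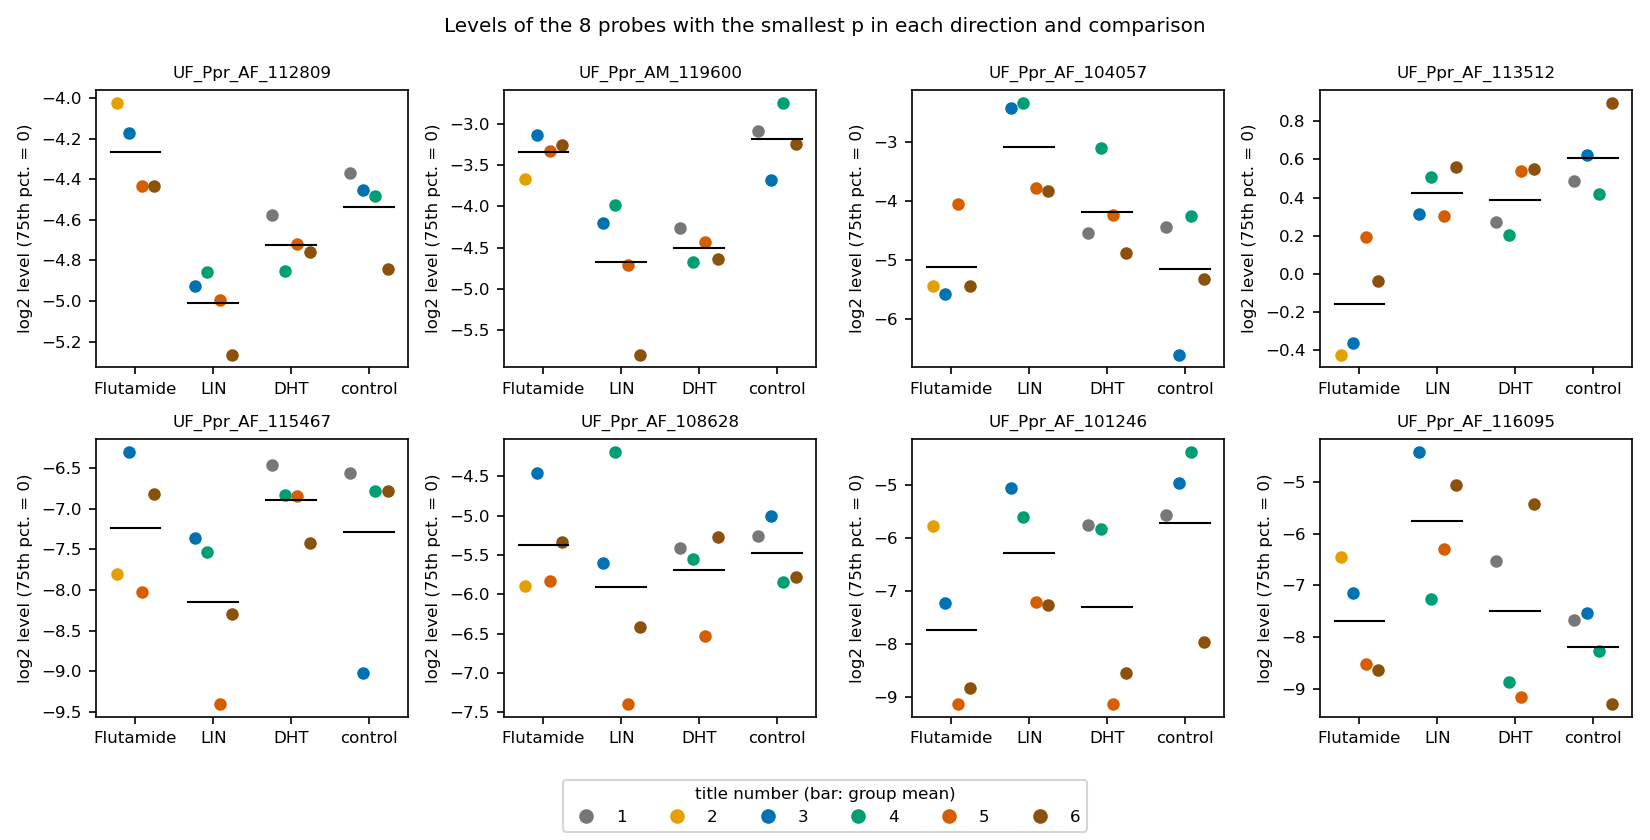
Levels (vertical axis, log2 relative to the 75th percentile of the array) of the 4 probes from the comparison of 4 against 4 arrays (top) and the 4 from the comparison within numbers (bottom), with 1 point per array coloured by title number and a bar at the group mean. In the top row the flutamide and LIN arrays do not overlap, and in the bottom row they do.

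The probes with the lowest p within the numbers were dimmer. UF_Ppr_AF_115467 (FJU.7482.C1) differed by 1.06, 1.38 and 1.47 in pairs 3, 5 and 6, a mean of 1.30 ± 0.15 (SE; limma adjusted p = 0.634). Of the 8 arrays only flutamide 3 measured it well above background, so in pairs 5 and 6 neither value was, and no fold is given. UF_Ppr_AF_108628 (FJU.9310.C1) differed by 1.15, 1.57 and 1.08, a mean of 1.27 ± 0.16 (SE; limma adjusted p = 0.634). LIN 5, at -7.40, was not well above background, so the pair 5 difference rests on a signal near background. Outside the pairs this probe ran the other way, with flutamide 2 at -5.90 and LIN 4 at -4.19, which was the highest of the 8 arrays. With spike-in centring the means of these probes were 0.50 and 0.46, and with normexp 0.63 and 0.70.

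On the lower side, UF_Ppr_AF_101246 (FJU.1299.C3) differed by -2.18, -1.93 and -1.57, a mean of -1.89 ± 0.17 (SE; limma adjusted p = 0.634). It was well above background on the LIN arrays but not on flutamide 3, 5 and 6, so these sizes rest on signals near background. The levels were -7.23, -9.13 and -8.83 on flutamide arrays 3, 5 and 6 and -5.05, -7.20 and -7.26 on LIN arrays 3, 5 and 6. UF_Ppr_AF_116095 (FJU.1862.C3) differed by -2.73, -2.22 and -3.58, a mean of -2.84 ± 0.30 (SE; limma adjusted p = 0.634). It was well above background on 1 flutamide array, flutamide 2, which is in no pair, on 4 LIN arrays, on 2 DHT arrays and on 0 control arrays. UF_Ppr_AF_116095 therefore passed the filter of 3 arrays only through LIN, the group where it was high. The arrays without a partner were again reversed at this probe, with flutamide 2 at -6.44 and LIN 4 at -7.27. With normexp the 2 means were -0.02 and -0.43. With spike-in centring, which moved nearly all probes down, both passed (-2.70, limma adjusted p = 8.379e-07, and -3.65, limma adjusted p = 9.183e-13). Among the calls with that centring the adjusted p followed the size of the difference alone. It therefore does not measure how these 2 probes varied over the 3 pairs.

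Some probes were measured well above background after 1 compound and not after the other. UF_Ppr_AF_113955, for sequence gi_73453235, was the 1 probe (0.00761%) that every flutamide array and no LIN array measured well above background, 4 against 0. Its level was -7.15, -3.64, -7.22 and -5.47 on flutamide arrays 2, 3, 5 and 6, against -7.45, -7.81, -8.08 and -8.92 on the LIN arrays. Flutamide 3 and 6 stood far above the other flutamide arrays, which lay just above the LIN arrays. The mean level after flutamide was at least 3.84-fold higher (limma adjusted p = 1.00). That bound allows for LIN signals near background, not for the spread between arrays. The fitted difference was 2.20, with a 95% interval from 0.69 to 3.71, and without flutamide 3 it became 1.45. The probe was also well above background on 4 of 4 DHT arrays and on 1 of 4 control arrays.

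In the other direction 5 probes (0.038%) were well above background on 4 of 4 LIN arrays and on 0 flutamide arrays. Except for UF_Ppr_AM_119946, they passed the filter of 3 arrays only through LIN, the group where they were high. UF_Ppr_AM_119946 (FJU.6518.C1) had the largest difference of the 5, with a mean at least 1.39-fold lower after flutamide (limma adjusted p = 1.00). The 95% interval of its difference ran from -1.81 to -0.04. Its level was -9.03, -7.39, -7.65 and -7.76 on flutamide arrays, against -7.11, -6.81, -7.21 and -7.01 on LIN arrays, and it was well above background on 3 of 4 DHT and 4 of 4 control arrays. DHT 1, at -8.50 and not well above background, lay among the flutamide arrays of this probe. The control arrays, from -6.62 to -6.35, lay above all LIN arrays. UF_Ppr_AF_100072 (FJU.5729.C1) had a mean at least 1.18-fold lower after flutamide (limma adjusted p = 1.00), and it was well above background on 1 DHT array and on 0 control arrays. The 95% interval of its difference ran from -1.87 to 0.38, and it differed by 0.03 in pair 3. Normexp turned the sign of both, to 1.15 and 1.31. For the other 3 probes the bound was 1.11-fold to 1.33-fold.

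4 probes that earlier results of these data called against control for 1 or both compounds were set side by side. UF_Ppr_AF_117765 (gi_73642462) stood at -6.75, -6.41, -7.60 and -6.46 on flutamide arrays, against -6.69, -6.47, -6.88 and -7.33 on LIN arrays, and the groups overlapped throughout. In pairs 3, 5 and 6 its differences were 0.28, -0.71 and 0.86, so pair 5 went the other way. Flutamide 5, at -7.60, was not well above background at this probe. UF_Ppr_AF_101427 (FJU.6392.C3) stood at -4.67, -4.27, -4.50 and -4.37 on flutamide arrays, against -3.92, -3.66, -4.65 and -4.57 on LIN arrays. LIN arrays 3 and 4 lay above all flutamide arrays and LIN 5 and 6 among them, and the mean difference within numbers was 0.00 ± 0.17 (SE; limma adjusted p = 0.998). The sign of the difference of both probes depended on the scaling or on single arrays.

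The other 2 of these probes, called for LIN, were higher on flutamide than on LIN arrays in 3 of 3 pairs without passing. Of all probes 26.3% were higher in 3 of 3 pairs with this scaling. Both were chosen because the same LIN arrays lay below control, and that choice favours a difference above 0. UF_Ppr_AF_107870 (gi_73723972) differed by 0.68, 0.60 and 1.18 in pairs 3, 5 and 6. Its mean within numbers was 0.82 ± 0.18 (SE, 95% interval 0.34 to 1.29; limma adjusted p = 0.634), and LIN 4, which has no partner, stood at -0.44, above 3 of the 4 flutamide arrays. UF_Ppr_AF_103365 (FJU.12821.C1) differed by 0.59, 0.39 and 1.14, a mean of 0.71 ± 0.20 (SE, 95% interval 0.17 to 1.24; limma adjusted p = 0.634). All 4 flutamide arrays of this probe, between -1.52 and -1.06, stood above the 4 LIN arrays, between -2.59 and -1.53. With spike-in centring the means within numbers were 0.01 and -0.10.

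Non-overlapping groups were few over all probes. All 4 flutamide values lay above all 4 LIN values at 57 probes (0.436%) and below them at 28 probes (0.214%) of the 13074 measured on all 8 arrays. The control mean was nearer to flutamide than to LIN at 21 of the 57 and at 10 of the 28, against 47.8% of all kept probes. The DHT mean was nearer to flutamide at 23 and at 11, against 48.6% of all kept probes. The differences had a median size of 0.36 in the 57 higher probes and 0.59 in the 28 lower ones, against 0.16 over all kept probes. Choosing probes without overlap favours larger differences, so no conclusion is drawn from that contrast.

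The largest fitted differences rested on a few arrays. The 6 probes with the largest size, chosen after their values were seen, were all lower after flutamide, with differences from -5.15 to -3.06, at unadjusted p from 0.0239 to 0.0686 (limma adjusted p = 1.00 for each). UF_Ppr_AF_106383 (FJU.99.C4) had the largest. Only 1 flutamide array measured it well above background, and the same held for UF_Ppr_AF_101877 and UF_Ppr_AF_100048. The sizes at these probes rest in part on signals near background. UF_Ppr_AF_115478 was above it on 3 flutamide arrays, and UF_Ppr_AF_115272 and UF_Ppr_AF_102654 on 4. UF_Ppr_AF_100048 passed the filter of 3 arrays only through LIN, the group where it was high. UF_Ppr_AF_106383 stood at -9.86, -8.997, -9.51 and -3.44 on flutamide arrays 2, 3, 5 and 6, against 1.36, -3.51, -3.90 and -5.15 on LIN arrays 3, 4, 5 and 6. Flutamide 6 lay among the LIN arrays, and LIN 3 stood far above its own group. UF_Ppr_AF_115272 (FJU.85.C11) was at -5.54, -5.16, -5.04 and -2.21 on flutamide arrays, against 4.27, -0.16, -1.02 and -1.81 on LIN arrays, with no overlap. Without LIN 3 the differences of these probes were -3.76 and -3.49, in place of -5.15 and -4.81.

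The same probes were also high on 2 of the control arrays. UF_Ppr_AF_115272 stood at 4.12 on control 3 and at 5.04 on control 4, but at -2.60 on control 1 and -4.63 on control 6, and DHT arrays lay between -4.83 and -2.77. Over all kept probes, 15 had LIN 3, control 3 and control 4 each over 4-fold above all other 13 arrays, and 0 had these 3 arrays that far below. Of the 6 probes above, 5 were among those 15. The 15 include contigs FJU.85.C11, FJU.86.C6, FJU.88.C2, FJU.95.C2, FJU.99.C4 and FJU.102.C8. Of the 15 probes, 14 had a higher mean on LIN 4, 5 and 6 than on the flutamide arrays. How many of all kept probes did so was not counted. Without LIN 3 the median difference of the 15 was -0.68, against 0.07 over all kept probes, and 0 of the 15 lay at an unadjusted p below 0.05. These 3 arrays lay on 3 different slides and carry 2 numbers, and what they share was not tested.

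**Figure D4:**
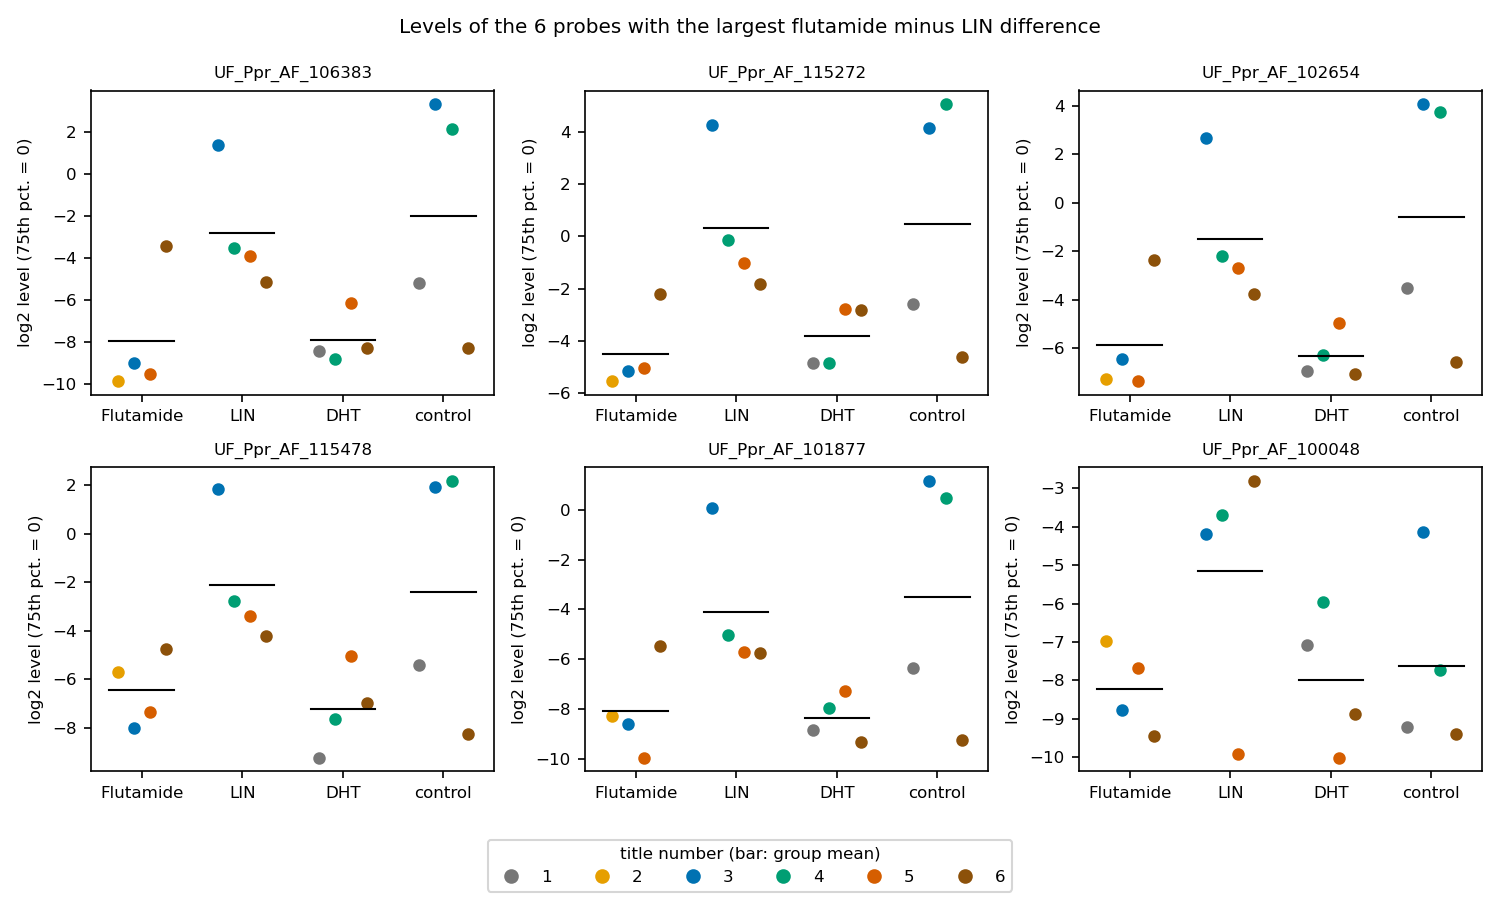
Levels (vertical axis, log2 relative to the 75th percentile of the array) of the 6 probes with the largest flutamide minus LIN difference, with 1 point per array coloured by title number and a bar at the group mean. In 5 panels LIN 3, control 3 and control 4 stand far above the other 13 arrays.

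Calls appeared when only slide 3 was used, which held 1 flutamide and 2 LIN arrays. There 15 probes passed, 8 higher and 7 lower after flutamide, and all 15 rest on flutamide 6. The fitted differences had a median size of 4.82, while in pair 3, on another slide, the same probes had a median difference of 0.21 in the called direction. UF_Ppr_AF_118448 (FJU.3979.C1) had the largest, at -9.16 on flutamide 6, against 0.17 to 1.19 on the other 15 arrays. It differed by -0.21 in pair 3 and by 0.01 in pair 5. UF_Ppr_AF_110115 (FJU.8972.C1) and UF_Ppr_AF_109240 (gi_73584900) were exceptions, since they were also higher in pair 3, by 4.26 and 3.13, against differences of -0.22 and 0.40 in pair 5. These 2 probes lay on neighbouring spots, in rows 173 and 174 of column 56. Flutamide 6 was also over 4-fold above all other 15 arrays at the spot in row 175 of that column.

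The lower calls lay in patches on the array, and the 8 higher calls ranged over rows 13 to 174 and columns 23 to 72. Some higher calls were neighbours too, as at row 144, column 71 and row 145, column 72, and in rows 173 and 174 of column 56. Of the 7 lower calls, 5 lay in rows 42 to 46 and columns 17 to 19 of the grid of 192 rows and 82 columns, and 2 lay in rows 133 to 136 of column 9. Over all kept probes flutamide 6 had 16 spots over 4-fold below the range of the other 15 arrays, and each of the 16 had another such spot within 2 rows and columns. It had 15 spots over 4-fold above that range, 10 of them with such a neighbour. On the other 7 flutamide and LIN arrays 0 lower spots had such a neighbour, although flutamide 2 had 21 of them and LIN 6 had 23, and higher spots with a neighbour were found on flutamide 3 alone (4 of 13). Flutamide 6 also had the lowest share of probes well above background, at 80.9%. The part of these patches in the 15 calls was not tested further.

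**Figure D5:**
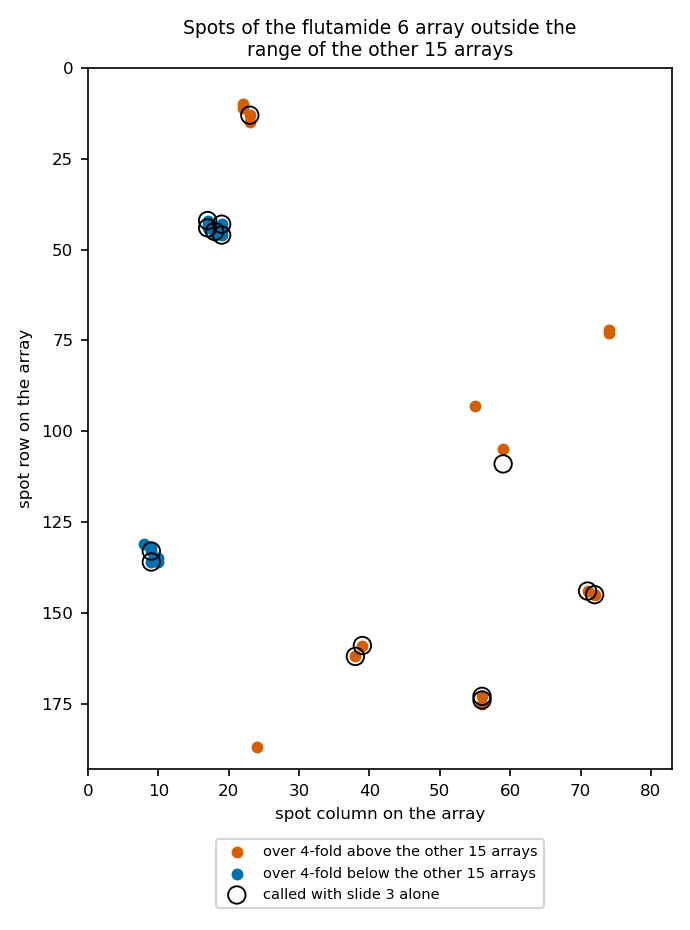
Position (spot row and spot column on the array) of the spots at which flutamide 6 lay over 4-fold above or below all other 15 arrays, with the 15 probes called on slide 3 alone circled. The 16 lower spots fall in a pair of patches, and 10 of the 15 higher spots have another within 2 rows and columns.

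Leaving out an array changed how many probes lay at an unadjusted p below 0.05 without making a call. Over the 16 arrays left out in turn there were 0 calls each time, and the count at an unadjusted p below 0.05 ran from 109 to 325, against 130. It was 325 without LIN 5, 247 without LIN 4 and 244 without flutamide 5. Within numbers it was 510 without number 3, 936 without number 5 and 495 without number 6, against 911. With the title number as a fixed block in the fit of all arrays, 996 probes lay there (753 higher, 243 lower), and 817 (581 higher, 236 lower) with it as a random block, and 0 were called either way.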

How the data were processed

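Cy3-labelled RNA from 16 ovary explant samples was measured on 1-colour Agilent arrays on 3 slides. Per the labels' protocols, RNA was extracted with TRIzol, and extracts whose integrity was low were purified on a column. The labels do not name those extracts. Each scan was deposited as Agilent Feature Extraction 10.7.1.1 output. Per the file headers it holds a linear intensity per spot, background-subtracted and detrended within the array. The median intensities of spot and background and flags of 0 or 1 were deposited with it. A table of log2 values came with them, also deposited by the authors. Its columns correlated with the same array's log2 signal at r of at least 0.9995, and its medians lay between 7.72 and 7.77, with method and centring not given in the sources used here. 0 columns had no sample.

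Of 15744 spots 536 were controls and 15208 were probes. The 79 spots marked as outliers on the 8 flutamide and LIN arrays (185 over all arrays) were dropped, and 0 probes were saturated. The level was log2 of the processed signal minus log2 of the array's 75th percentile over probes. The 13146 probes well above background on at least 3 of 4 arrays of at least 1 group were kept, and 11616 were above it on all 8 arrays. The number of arrays limits the precision.

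limma 3.58.1 in R 4.3.3 fitted group means over all 16 arrays (contrast flutamide minus LIN) and, for the 6 arrays with a partner, the compound with the title number as a fixed block. Tests were two-sided and moderated, with Benjamini-Hochberg adjustment over all kept probes. The code was checked on simulated data with 200 changed probes. A probe with no array of a group above background has only a bound there. On each array of that group the probe was set to its own signal or to the lowest signal well above background, whichever was greater, and the bright group's mean was divided by the mean of these.

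Named probes are the 2 with the smallest p per direction and comparison without overlap between groups (within numbers, with 1 sign in 3 of 3 pairs), 4 probes called earlier against control, and up to 2 per direction above background after 1 compound only. Others were chosen after their values were seen. Members and lists were chosen with earlier results of these data known. The lists of genes and of cell type markers could not be used: 0 names matched the RefSeq table of assembly fPimPro1.hap1.1.

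The numbers were taken to pair the samples. Deviations from group means of same-number arrays correlated in all 16 pairs, at r from 0.353 to 0.771. Pairs with different numbers ran from -0.494 to 0.366, so the ranges overlapped slightly. What a number marks is not stated in the labels. Alternatives were scalings, spike-in centring (200 E1A spots), normexp with an offset of 50, the authors' table, filters, the prior, blocks, single slides and arrays left out. Normexp on the mean signal was planned, but the files hold the median signal, so that was used, a choice made after seeing the data. So was leaving out number 5.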

Additional observations from a re-analysis of the deposited data

Results flagged for a closer look

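At UF_Ppr_AF_104057 flutamide 5, at -4.04, stood above the other 3 flutamide arrays: its gap to the nearest of them was 0.9068 of the group's range, over Dixon's critical value for 4 samples. The median level over all probes of flutamide 3, at -3.10, stood above those of the other flutamide arrays by 0.8704 of the group's range. 36 group values were checked in this way, and chance marks about 1 in 20.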

How the results depend on the processing

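The count of 0 calls over 4 against 4 arrays was 0 under every alternative run other than slide 3 alone, where it was 15. Within numbers it was 0 under every alternative run other than spike-in centring, where it was 379 (9 higher, 370 lower). Besides UF_Ppr_AF_101246 and UF_Ppr_AF_116095, these include UF_Ppr_AF_113955 (1.90, limma adjusted p = 0.00225) and UF_Ppr_AF_104057 (-2.48, limma adjusted p = 9.96e-06). The adjusted p of these 379 followed the size of the difference alone, not the spread of each probe. The cause of these calls was not tested. Leaving out arrays or numbers in turn gave 0 calls each time in both comparisons. At an unadjusted p below 0.05, the 130 probes became 228 with quantile normalization, 1534 with spike-in centring, 531 with normexp, 234 in the authors' table, 195 with no filter, 264 on slide 1, 835 on slide 3, 247 with a slide block, 82 with the 8 arrays alone and 227 without number 5. The 911 within numbers became 3145 with spike-in centring and 3740 with normexp. Intervals within 2-fold fell in number to 1811 with spike-in centring, 4980 with normexp, 3883 on slide 1 and 3222 on slide 3, and within numbers to 412 with spike-in centring.

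The replicate block, by title number, gave 0 calls in the fixed and the random form (estimated correlation 0.631) and raised the count at an unadjusted p below 0.05 to 996 and 817. Within numbers, no replicate block gave 0 calls, 144 probes and 6411 intervals within 2-fold. The pairing changed no call.

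Signs turned at these probes, and the cause was not tested. With normexp UF_Ppr_AM_119946 was at 1.15, UF_Ppr_AF_100072 at 1.31 and UF_Ppr_AF_101427 at 0.74, and the last was at 0.24 on slide 3. UF_Ppr_AF_117765 was at -0.49 with spike-in centring, at -0.42 on slide 1, and at -0.095, -0.077 and -0.13 without flutamide 3, flutamide 6 or LIN 6 (-0.13 to 0.30 over the arrays left out in turn). Within numbers it was at -0.037 with quantile normalization, -0.66 with spike-in centring, -0.060 in the authors' table and -0.22 without number 6 (-0.22 to 0.57 over the numbers left out). UF_Ppr_AF_101427 within numbers was at -0.13 with median scaling, -0.18 with quantile normalization, -0.80 with spike-in centring, -0.15 in the authors' table, -0.075 with numbers 3 and 6 only (without number 5) and -0.098 without number 6 (-0.098 to 0.18 over the numbers left out). UF_Ppr_AF_103365 within numbers was at -0.098 with spike-in centring. The E1A spike-in spots had a median signal of 493 on flutamide 6 and 260 on LIN 6.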

Other observations

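Of the sequence names, 709 had 2 probes, and both probes of 329 names were kept. Across these 329 names the flutamide minus LIN differences of the probe pair correlated at r = 0.10 over 4 against 4 arrays and at -0.07 within numbers, and their mean levels at -0.34. Names are not independent replicates. How often a difference was shared by both probes of a name was not counted. Whether the probes of a pair lie on opposite strands was not tested.

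Differences at an unadjusted p below 0.05 within numbers gathered among dim probes: of 5 equal groups by mean level the dimmest had 389 and the brightest 40. The SD of the differences of pairs 3, 5 and 6 was 0.94, 0.64 and 1.01 in the dimmest group and 0.30, 0.16 and 0.38 in the brightest.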
